A study of Mus musculus with 6 samples.

Results

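The gp130 cytokine receptors and the Stat3 axis were followed through 8 genes, from ligand to feedback inhibitor, in CD4+ T cells of memory phenotype from mice with experimental autoimmune encephalomyelitis (EAE), an inflammatory disease of the central nervous system. The genes were Osm, Ebi3, Il6st, Il6ra, Lifr, Il27ra, Stat3 and Socs3, fixed by name, and every probe set annotated to exactly 1 of them was taken. They had 19 probe sets of the 45101 on the array and were 8 of the 18193 genes measured. A probe set is a group of short probes against 1 transcript region, and its value is an intensity on a linear scale. The 3 arrays of the one group hold cells isolated from spinal cord, and the 3 of the other hold cells of the inguinal nodes that drain the immunised site; the mice were female C57BL/6, 8 to 10 weeks old. All had acute clinical disease induced by the myelin peptide MOG35-55, so the lymph node is the node of a diseased mouse and no healthy mouse was measured. The labels number the arrays 1 to 3 in each tissue and give neither the animals per array nor the gate for memory phenotype, so each p-value reflects array-to-array spread that may be technical only.

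Interleukin-6 family cytokines signal through gp130, a receptor chain encoded by Il6st that is shared by the whole family. Each cytokine adds its own partner chain, gp130-bound Janus kinases phosphorylate the receptor, and STAT3 docks there, becomes phosphorylated and enters the nucleus. SOCS3, itself a STAT3 target, binds gp130 and ends the signal. In CD4+ T cells interleukin-6 through STAT3 drives the interleukin-17 and follicular helper programs, while interleukin-27, which also uses gp130, restrains interleukin-17.

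In spinal cord cells the transcripts of the shared chain Il6st and of the interleukin-27 subunit Ebi3 were lower, and the levels of Stat3 and Socs3 were not called different. Tissues were compared with limma, which gives a log2 change (spinal cord over lymph node) with its standard error (SE), and a gene was called when its p, adjusted by Benjamini-Hochberg over all 18193 genes, lay under 0.05. Of the 8 genes, 2 were called lower and 0 higher, against 1.41% of all genes called lower and 1.13% called higher. The median log2 change of the 8 was -0.40, against 0.00193 over all genes. Arrays of one number deviated together in both tissues, so the fit was also run with that number as a block. The groups did not overlap for 3 lower genes and 1 higher, against 9.68% and 8.81% of all genes. Il6ra joined the lower genes with the block, making 3, against 7.45% of all genes called lower with the block. Its value came from the probe set of highest mean, which had that rank only through its lymph node values. The other Il6ra probe set was not called and showed almost no change.

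**Figure D1:**
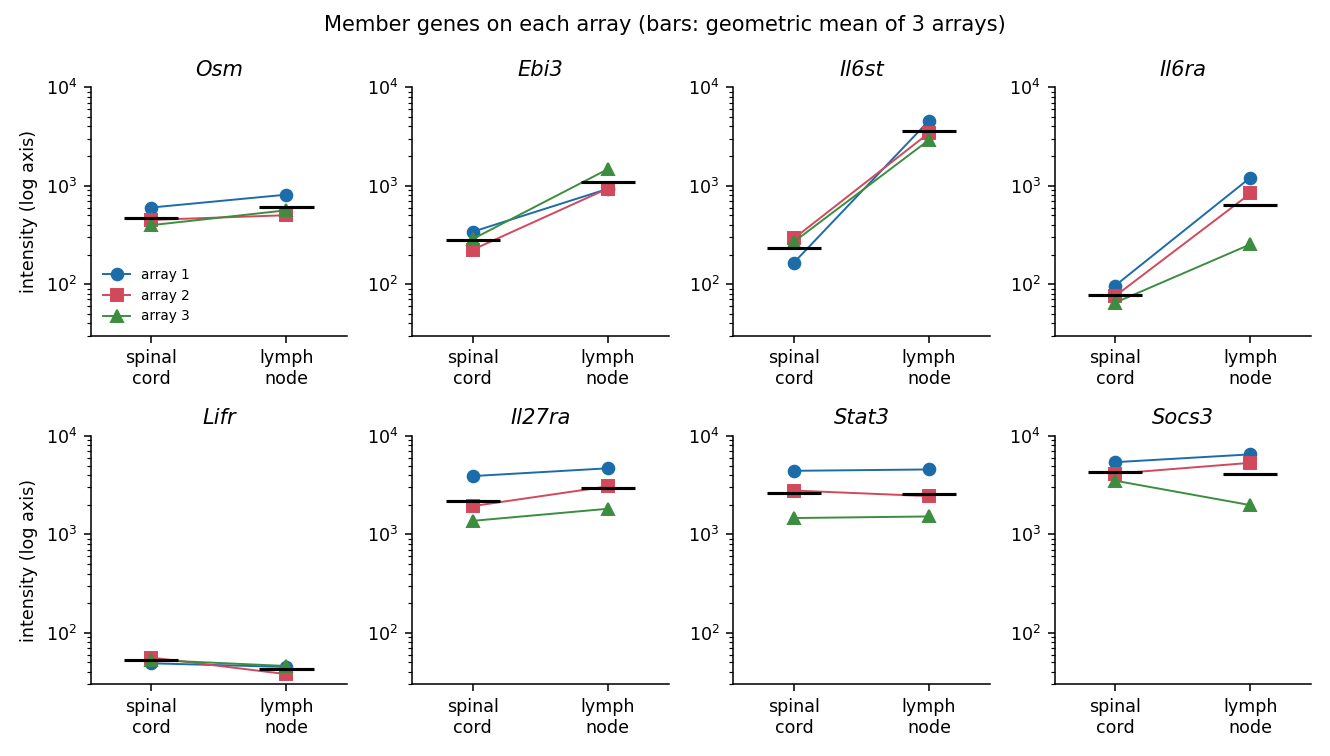
Intensity of each gene on every array, on a log axis, with spinal cord on the left and lymph node on the right of each panel. Lines join arrays of the same number and bars give the geometric mean of 3 arrays. Il6st, Il6ra and Ebi3 lie lower on every spinal cord array than on any lymph node array, while Stat3 follows the array number in both tissues.

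Il6st, the signalling chain common to interleukin-6, interleukin-27, LIF and oncostatin M receptors, read 166, 292 and 270 in spinal cord arrays 1, 2 and 3, against 4588, 3440 and 2920 in lymph node arrays 1, 2 and 3. The lowest lymph node value was above the highest spinal cord value, and the order of the arrays was not the same in the tissues. On the log2 scale it averaged 7.88 ± 0.44 in spinal cord and 11.81 ± 0.33 in lymph node (SD, n = 3 each), a log2 change of -3.93 ± 0.27 SE, or 15.2-fold lower (limma adjusted p = 0.00482). This was the decrease of rank 8 among the 257 called. Within arrays of the same number, spinal cord over lymph node was 0.0362, 0.0849 and 0.0925. The call held whichever single array was left out, with log2 changes from -4.08 to -3.67 and adjusted p from 0.0114 to 0.0397. Adjusted over all probe sets instead, its call held in 4 of these 6 fits, with adjusted p up to 0.0599.

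The other probe sets of Il6st did not all give this change. Probe set 1460295_s_at, whose suffix marks probes that can match transcripts of more than 1 gene, read 37, 45 and 35 in spinal cord, against 243, 185 and 199 in lymph node. The spinal cord mean was 5.35-fold lower (-2.42 ± 0.16 on the log2 scale, limma adjusted p = 0.00781 over all 45037 probe sets that are not controls). Probe set 1437303_at read 51, 51 and 33 in spinal cord, against 528, 1224 and 125 in lymph node, where its values ranged widely. Its log2 change of -3.29 ± 0.81 was not called (limma adjusted p = 0.169), and with the array number as a block it was (0.0298). Probe set 1421239_at stood apart, with 86, 83 and 80 in spinal cord, against 99, 92 and 93 in lymph node, giving a log2 change of -0.19 ± 0.10 (limma adjusted p = 0.544). Which part of the transcript each probe set reads was not tested.

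The 3 genes whose log2 pattern over the 6 arrays lay nearest to Il6st, among 10915 others above the 40th percentile of the mean, were Nrn1, Rflnb and Ppic. Nearness was the Euclidean distance of log2 values centred on each gene's mean, and it was 0.786, 1.09 and 1.12 for these genes. Nrn1, which encodes neuritin, read 59, 104 and 133 in spinal cord, against 1078, 1167 and 865 in lymph node. These genes were picked by nearness on the same arrays, so a similar tissue difference follows from the choice. Their log2 changes were -3.46 or lower, with spinal cord array 1 lowest for Nrn1, Ppic and Il6st but highest for Rflnb.

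To show the start regions of Il6st and Ebi3, both called lower, RefSeq promoter windows (build GRCm38.p6, 250 bases before to 50 after the start site) are given 5′ to 3′ beside that of Socs3, the inhibitor whose transcript was not called. They lie at chr13:112463820-112464119 on the plus strand (Il6st), chr17:55952373-55952672 on the plus strand (Ebi3) and chr11:117969317-117969616 on the minus strand (Socs3). Capitals mark TTCNNNGAA, the palindromic element that STAT factors bind, searched on both strands by its own symmetry.
Il6st: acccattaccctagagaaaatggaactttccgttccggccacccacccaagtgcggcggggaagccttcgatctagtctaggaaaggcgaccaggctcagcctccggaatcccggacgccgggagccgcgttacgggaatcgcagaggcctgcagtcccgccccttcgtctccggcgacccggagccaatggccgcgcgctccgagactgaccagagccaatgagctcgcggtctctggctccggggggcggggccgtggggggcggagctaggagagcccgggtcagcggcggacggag
Ebi3: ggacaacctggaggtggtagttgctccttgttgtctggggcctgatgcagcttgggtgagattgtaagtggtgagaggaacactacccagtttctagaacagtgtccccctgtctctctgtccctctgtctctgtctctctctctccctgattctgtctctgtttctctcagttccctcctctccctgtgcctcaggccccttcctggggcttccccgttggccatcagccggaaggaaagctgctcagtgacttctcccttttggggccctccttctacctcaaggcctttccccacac
Socs3: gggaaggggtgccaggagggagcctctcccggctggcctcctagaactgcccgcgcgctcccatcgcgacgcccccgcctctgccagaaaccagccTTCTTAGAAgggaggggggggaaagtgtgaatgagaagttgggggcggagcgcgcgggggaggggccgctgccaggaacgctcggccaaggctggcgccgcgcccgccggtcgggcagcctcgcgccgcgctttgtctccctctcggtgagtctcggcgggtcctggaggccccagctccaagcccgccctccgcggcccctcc
The Socs3 window held 1 match, TTCTTAGAA, which begins 154 bases before the start site. The windows of Il6st, Ebi3, Il6ra and Stat3 and both windows of Lifr held 0. Only 6 members had a window, and Osm and Il27ra had none to search. The motif is in 8.3% of the 32851 RefSeq windows. A match describes letters and not a bound site, and a window without one says nothing about the factor.

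Ebi3, the subunit that pairs with p28 to form interleukin-27 and with p35 to form interleukin-35, read 341, 224 and 288 in spinal cord arrays 1, 2 and 3, against 930, 937 and 1472 in lymph node. The groups did not overlap, and the log2 means were 8.13 ± 0.31 in spinal cord and 10.09 ± 0.38 in lymph node (SD, n = 3 each). The log2 change was -1.96 ± 0.25 SE, or 3.88-fold lower (limma adjusted p = 0.018). Within arrays of one number spinal cord over lymph node was 0.367, 0.239 and 0.196. Leaving out spinal cord array 2 or 3 or lymph node array 2 ended the call, at adjusted p of 0.0781, 0.0743 and 0.0749, with log2 changes of -2.10 to -1.74 over the 6 fits that left out 1 array. With adjustment over all probe sets, 0 of these 6 fits called it, and the highest adjusted p was 0.119. Nearest to it in pattern, by the same measure, were Fam241b, Msrb2 and the acyl-CoA synthetase gene Acsl3, at distances of 0.31, 0.459 and 0.482.

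Ebi3 and Il6ra are also known from myeloid cells and B cells, so the markers of those cells are given here. In bulk samples fewer cells of a type and less RNA per cell cannot be told apart. Of 10 measured B lineage and plasma cell genes 2 fell, Ighm and Cd22, against 1.41% of all genes. The summed intensity of the list was 1555 to 2094 in spinal cord, against 6048 to 9253 in lymph node. Ighm carried most of that sum, with 1643, 1226 and 1099 in spinal cord, against 8119, 5879 and 4898 in lymph node. Cd22 read 108, 98 and 116 in spinal cord, against 620, 679 and 750 in lymph node. Its log2 change was -2.67 ± 0.13 SE (limma adjusted p = 0.00171), and it was called in all 6 fits that left out 1 array. Cd79a, a defining B cell gene, read 36 to 54 in spinal cord, against 40 to 63 in lymph node. Ms4a1, which encodes CD20, read 28 to 39 in spinal cord, against 27 to 43 in lymph node. Cd79b, the partner of Cd79a, read 43, 29 and 39 in spinal cord, against 117, 79 and 57 in lymph node, without overlap. It was called only with the array number as a block (limma adjusted p = 0.134, and 0.0267 with the block). With the block 3 B lineage genes were lower, against 7.45% of all genes. The part of B lineage transcripts in the lower Ebi3 and Il6ra was not tested. The macrophage, monocyte and microglia list ran the other way: its 18 measured genes summed to 1551 to 6025 in spinal cord, against 823 to 931 in lymph node, with 0 called and 15 higher without overlap, against 8.81% of all genes. With the array number as a block 9 of the 18 were called higher, against 3.67% of all genes. Csf1r, the receptor for the macrophage growth factor, read 237, 1486 and 754 in spinal cord, against 99, 57 and 98 in lymph node. The part of myeloid transcripts in the levels of Ebi3 and Il6ra was not tested.

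Osm, which encodes oncostatin M, a gp130 cytokine made by T cells and myeloid cells, read 601, 450 and 398 in spinal cord, against 812, 502 and 563 in lymph node. The tissues overlapped, although spinal cord was lower in each pair of one number, with ratios of 0.74, 0.896 and 0.707. The log2 change was -0.36 ± 0.24 SE (limma adjusted p = 0.593; 0.13 with the block). The neutrophil list summed to 995, 2566 and 1141 in spinal cord, against 747, 554 and 557 in lymph node, and S100a8, a granule protein gene of neutrophils, read 53, 752 and 122 in spinal cord, against 59, 30 and 36 in lymph node. The part of these cells in the level of Osm was not tested.

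Il6ra, the chain that binds interleukin-6 and brings it to gp130, read 97, 76 and 65 in spinal cord arrays 1, 2 and 3, against 1209, 834 and 254 in lymph node. The tissues did not overlap, but lymph node array 3 lay well below the other lymph node arrays. The log2 means were 6.29 ± 0.29 in spinal cord and 9.31 ± 1.18 in lymph node (SD, n = 3 each), and the log2 change of -3.02 ± 0.57 SE, an 8.12-fold difference, was not called (limma adjusted p = 0.0606). With the array number as a block the SE was 0.33 and the gene was called (limma adjusted p = 0.00654). Without lymph node array 3 the log2 change was -3.68 and the gene was called (0.0147), and without any other single array it was not (0.107 to 0.227). Its spinal cord values sat near the array medians of 68 to 71. The second probe set, 1422270_a_at, read 135, 111 and 111 in spinal cord, against 136, 121 and 118 in lymph node, with no such gap (log2 change -0.07 ± 0.13, limma adjusted p = 0.895). In spinal cord 1422270_a_at was the brighter, with a log2 mean of 6.89. The probe set used for the gene thus had the highest mean through lymph node, and the gene value favours a decrease by that choice.

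Il27ra encodes the chain that joins gp130 in the interleukin-27 receptor. It read 3905, 1935 and 1371 in spinal cord arrays 1, 2 and 3, against 4684, 3067 and 1818 in lymph node. The tissues overlapped, and both ran from high to low over the array numbers. Spinal cord over lymph node was 0.834, 0.631 and 0.754 within numbers, and the log2 change of -0.44 ± 0.49 SE was not called (limma adjusted p = 0.774; 0.0874 with the block). Lifr, the LIF receptor chain that pairs with gp130, read 49, 56 and 53 in spinal cord, against 45, 38 and 46 in lymph node, below the array medians. Its groups did not overlap, as for 8.81% of all genes in that direction, but the log2 change was 0.30 ± 0.13 SE and was not called (limma adjusted p = 0.377). The other 2 Lifr probe sets read 13 to 22 on all arrays, under the 20th percentile of all values (25).

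**Figure D2:**
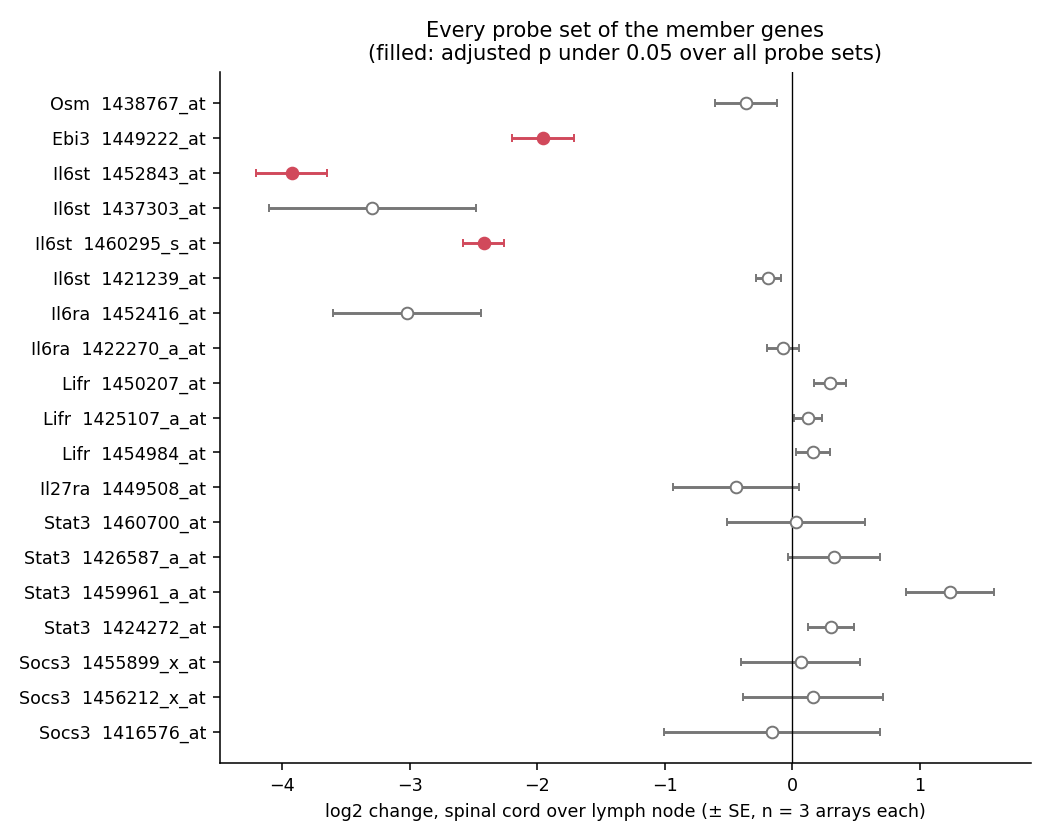
Log2 change of spinal cord over lymph node, with its SE (n = 3 arrays each), for all 19 probe sets grouped by gene from ligands at the top to Socs3 at the bottom. Filled points passed an adjusted p of 0.05 over all probe sets. The filled points are 2 Il6st probe sets and the Ebi3 probe set, and 1 Il6st and 1 Il6ra probe set lie near 0.

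Of the 19 probe sets 3 were called lower and 0 higher, against 0.613% and 0.573% of all probe sets, and with the array number as a block 5 were lower and 1 higher, against 3.74% and 2.47%. The 1 higher was a probe set of Stat3. The tissues did not overlap for 6 lower and 2 higher probe sets, against 7.57% and 8.3% of all.

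Stat3, the transcription factor that carries the gp130 signal, read 4416, 2783 and 1464 in spinal cord arrays 1, 2 and 3, against 4560, 2445 and 1519 in lymph node arrays 1, 2 and 3. Arrays of one number had nearly the same value in both tissues, with ratios of 0.968, 1.14 and 0.964, and array 1 read about as far above array 3 in spinal cord as in lymph node. The log2 means were 11.36 ± 0.80 in spinal cord and 11.33 ± 0.80 in lymph node (SD, n = 3 each). The log2 change was 0.03 ± 0.53 SE (limma adjusted p = 0.994), and with the number as a block it was 0.03 ± 0.11 (0.905). Of the sum of squares of its log2 values, 99.2% went with the array number and 0.0499% with tissue. Over all genes the medians of these shares were 49% and 20%. The array number has more levels than tissue, so on average it takes a larger share even where neither has an effect.

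The Stat3 probe sets did not all give the same change. Probe set 1459961_a_at read 969, 1250 and 667 in spinal cord, against 313, 608 and 324 in lymph node, so that every spinal cord array lay above every lymph node array. Its log2 change was 1.24 ± 0.34 SE (limma adjusted p = 0.225 over all probe sets), and with the array number as a block it was called higher (0.0209). The ratios within numbers were 3.10, 2.06 and 2.06. Probe sets 1426587_a_at and 1424272_at changed by 0.33 ± 0.36 and 0.30 ± 0.18 on the log2 scale, neither of them called (limma adjusted p = 0.82 and 0.622). The suffix of 1459961_a_at marks probes shared by alternative transcripts of one gene, and whether the probe sets differ from each other was not tested.

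Socs3, the feedback inhibitor that binds gp130, read 5406, 4137 and 3503 in spinal cord, against 6488, 5322 and 1980 in lymph node. The tissues overlapped, with spinal cord lower for numbers 1 and 2 (ratios 0.833 and 0.777) and higher for number 3 (1.77). The log2 change was 0.07 ± 0.46 SE (limma adjusted p = 0.97; 0.903 with the block). Without lymph node array 3 it was -0.46, and without spinal cord array 1 it was -0.10, so the sign was not stable. Another probe set, 1416576_at, read 1340, 707 and 478 in spinal cord, against 2950, 651 and 329 in lymph node, giving a log2 change of -0.16 ± 0.85 (limma adjusted p = 0.966). The probe set 1456212_x_at had a log2 change of 0.16 ± 0.55 (0.951). The suffix x marks probes that may bind other transcripts, which was not tested. It is also the suffix of 1455899_x_at, the probe set that gave the first Socs3 values above, while 1416576_at does not carry it.

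**Figure D3:**
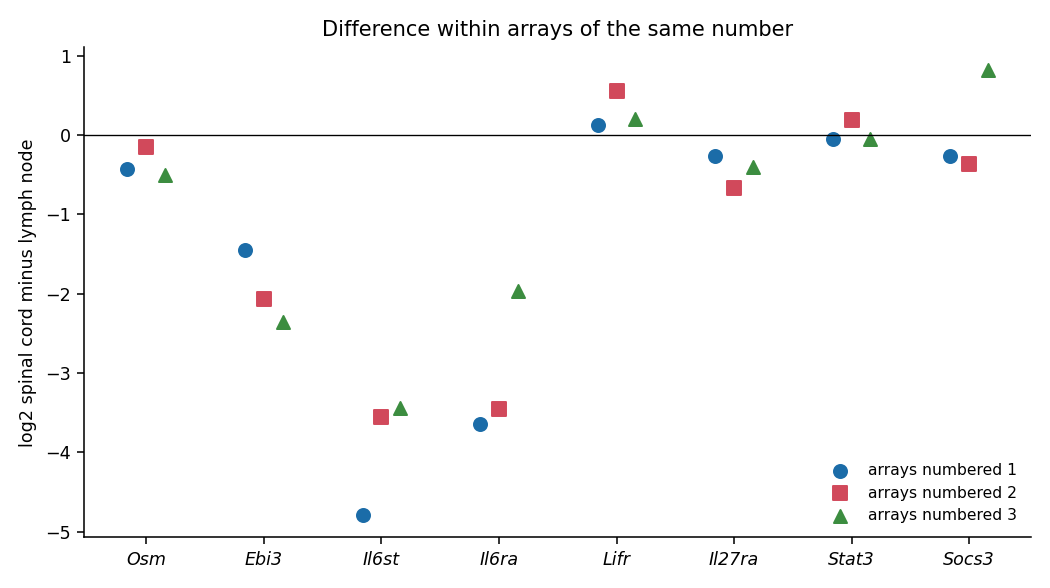
Log2 difference of spinal cord minus lymph node within arrays of the same number, for each of the 8 genes. Il6st lies between -4.79 and -3.43, Il6ra between -3.64 and -1.97 and Ebi3 between -2.35 and -1.45, while Stat3 and Socs3 have differences on both sides of 0.

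An exact two-sided permutation test over the 6 arrays gave p = 0.1 for Il6st, Il6ra, Ebi3 and Lifr, and no lower p can arise from 3 arrays against 3. The exact permutation p was 0.3 for Osm, 0.5 for Il27ra, 0.9 for Socs3 and 1 for Stat3.

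The other genes of the pathway were taken from 7 lists of ligands, receptor chains, kinases and STATs, inhibitors, shedding proteases, interleukin-12 family partners and STAT3-linked genes. Of 67 genes beside the 8 members 59 were measured, and 4 rose and 2 fell, against 1.13% and 1.41% of all genes. With the array number as a block 11 were higher and 5 lower, against 3.67% and 7.45%. Their median log2 change was 0.05, against 0.00193 over all genes.

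**Figure D4:**
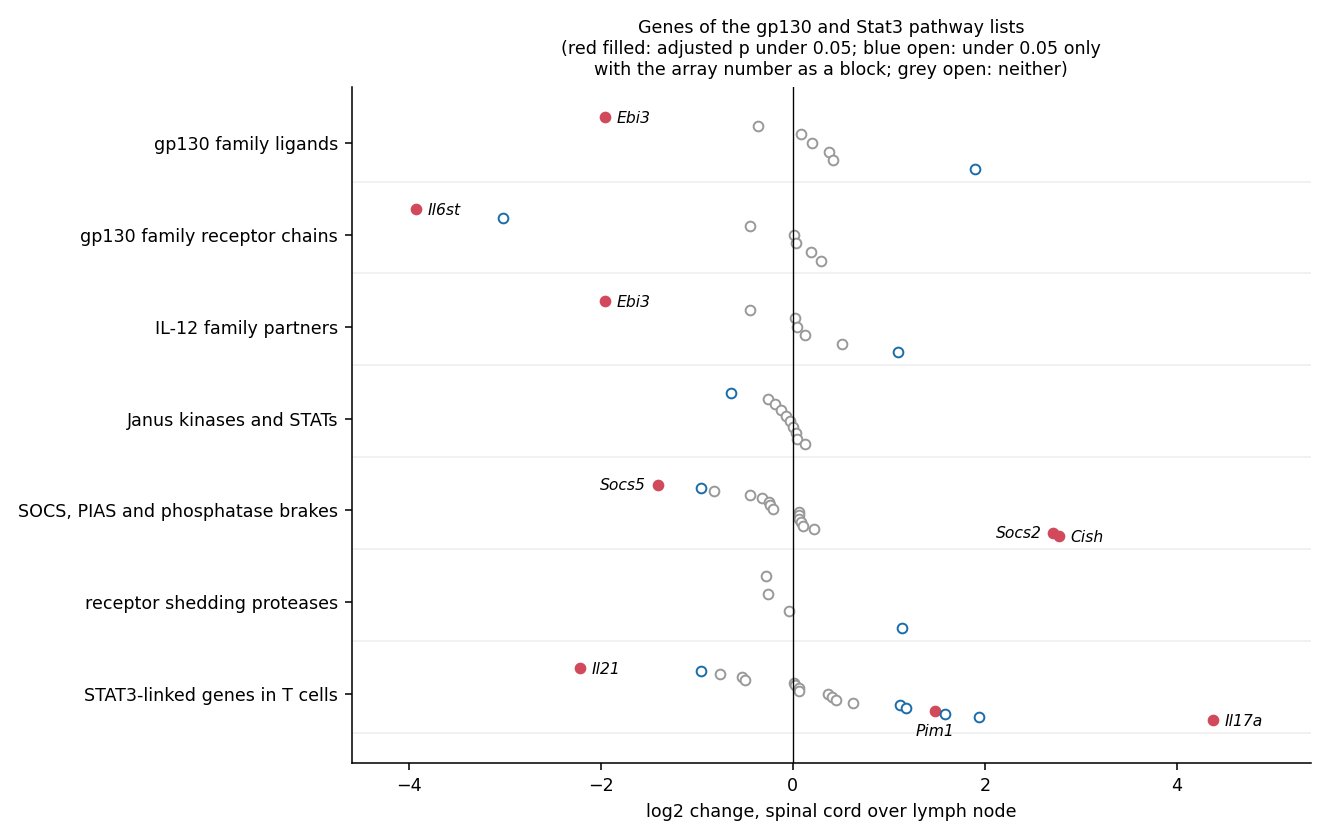
Log2 change of spinal cord over lymph node for every measured gene of the 7 pathway lists, members included. Red filled points passed an adjusted p of 0.05, blue open points passed it only with the array number as a block, and grey open points passed neither. Among the inhibitors Socs2 and Cish lie above 2.7 on the log2 scale and Socs5 lies below -1.4, and the Janus kinase and STAT genes crowd around 0.

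Among the ligands Ebi3 alone of 7 measured genes was called. Il6 itself, the founding cytokine of the family, read 17, 19 and 26 in spinal cord, against 16, 15 and 16 in lymph node, near the lowest values of the arrays. Lif, a gp130 cytokine, was named after its values were seen. It read 751, 504 and 348 in spinal cord, against 182, 149 and 94 in lymph node, with no overlap. Its log2 change was 1.90 ± 0.36 SE (limma adjusted p = 0.0596), and it was called higher with the block (0.00145). Among the 7 measured receptor chains Il6st was the 1 called, and the oncostatin M receptor gene Osmr read 25 to 30 on spinal cord arrays, against 25 to 27 on lymph node arrays. Il31ra, another gp130-like chain, had a log2 change of 0.18 ± 0.17 (limma adjusted p = 0.724). Of 7 measured interleukin-12 family partners Ebi3 was again the 1 called. With the block Il12rb2, the signalling chain of the interleukin-12 receptor, was called higher (log2 change 1.10 ± 0.36, limma adjusted p = 0.232, and 0.0245 with the block). Il12rb2 read 102, 41 and 48 in spinal cord, against 33, 24 and 26 in lymph node. It was dim, and its lymph node values lay near the 20th percentile of all values (25).

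Of 10 measured Janus kinase and STAT genes 0 were called, and with the block 1 was lower, against 7.45% of all genes. That gene was Jak2, a kinase that binds gp130, which read 2798, 3075 and 2525 in spinal cord, against 3858, 4696 and 4544 in lymph node. Every spinal cord value lay below the lymph node values, and the log2 change was -0.64 ± 0.14 SE (limma adjusted p = 0.0833; 0.0321 with the block). Jak1, the kinase chiefly used by gp130, had a log2 change of -0.07 ± 0.31 (limma adjusted p = 0.955), and Tyk2 one of -0.19 ± 0.44 (0.907). Stat5a, a STAT driven by interleukin-2, had a log2 change of -0.26 ± 0.21 (0.682).

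The inhibitors parted from each other. Of 16 genes, 2 rose and 1 fell, against 1.13% and 1.41% of all genes, while 13 were not called, Socs3 among them. Cish and Socs2, feedback inhibitors induced by STAT5, were the 2 that rose. Cish read 9692, 6547 and 6087 in spinal cord, against 1667, 838 and 868 in lymph node, giving a log2 change of 2.77 ± 0.32 SE (limma adjusted p = 0.0148). Socs2 read 1032, 719 and 666 in spinal cord, against 148, 90 and 131 in lymph node, giving a log2 change of 2.72 ± 0.25 (limma adjusted p = 0.00818). Both genes had no overlap between tissues. Socs5 fell, with 210, 217 and 210 in spinal cord, against 406, 748 and 593 in lymph node, giving a log2 change of -1.41 ± 0.23 (limma adjusted p = 0.039). Ptpn11, which encodes SHP2, a phosphatase that docks on gp130 at the same site as SOCS3, read 2802, 2950 and 2779 in spinal cord, against 4249, 5121 and 7775 in lymph node. Its log2 change of -0.96 ± 0.23 was called with the block alone (limma adjusted p = 0.115; 0.0342 with the block), and it was named after its values were seen.

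Of 6 fits that each left out 1 array, Socs2 was called in 5 (adjusted p = 0.0516 without spinal cord array 2), Cish in 2 (highest 0.0762, without lymph node array 2) and Socs5 in 1 (highest 0.144, without spinal cord array 2). Of the 6 called pathway genes 4 had further probe sets, and 1 of these, Socs2, had another that was called. The other probe sets of Socs5, Il21 and Pim1 had log2 changes of -0.42, -1.25 and 0.78 (limma adjusted p = 0.54, 0.178 and 0.3). That of Il21 was called with the block (0.0278). Adjusted over all probe sets, the main probe sets of Socs5 and Il21 were not called (limma adjusted p = 0.06 and 0.0515), but were with the block (0.0216 and 0.0242).

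Of 19 measured genes linked to STAT3 in T cells 2 rose and 1 fell, against 1.13% and 1.41% of all genes. With the block the counts became 6 higher and 2 lower, against 3.67% and 7.45% of all genes. Il17a, the defining cytokine of the interleukin-17 program, was 20.8-fold higher, and Pim1, a kinase gene induced by STAT factors, read 7459, 8377 and 8860 in spinal cord, against 3863, 2890 and 2303 in lymph node. The log2 change of Pim1 was 1.48 ± 0.21 SE (limma adjusted p = 0.0261). The 4 that joined the higher genes with the block were Fos, Junb, Prdm1 and Rora, and Batf, a factor of the interleukin-17 program, joined the lower; these were named after their values were seen. Junb had a log2 change of 1.94 ± 0.82 (limma adjusted p = 0.362; 0.0159 with the block), and Batf one of -0.96 ± 0.26 (0.155; 0.00802 with the block). Il21, a cytokine of follicular and interleukin-17 helper cells, fell, with 367, 330 and 324 in spinal cord, against 968, 1623 and 2516 in lymph node, which is a log2 change of -2.22 ± 0.34 (limma adjusted p = 0.0332). Bcl3, a STAT3 target gene, had a log2 change of 0.02 ± 0.79 (limma adjusted p = 0.999), and Maf one of -0.76 ± 0.30 (0.335). Among 6 fits that each left out 1 array Pim1 was called in 1 (highest adjusted p 0.126, without lymph node array 2), and Il17a and Il21 in 2 each (highest 0.0926 and 0.145, also without that array).

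Of 4 genes that serve receptor shedding 0 were called. Adam17, the protease that releases interleukin-6 receptor from the cell surface, had a log2 change of -0.28 ± 0.23 (limma adjusted p = 0.692), and Adam10 one of -0.26 ± 0.18 (0.61). Rhbdf2, which encodes iRhom2, the partner of ADAM17, had a log2 change of 1.14 ± 0.26 (limma adjusted p = 0.105), and with the block it was called higher (0.0145).

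The labelled cell type was checked against its markers. Of 10 measured T cell identity genes 0 were called, and their intensities lay between 1248 and 14440 on all arrays. Cd44, the memory marker, had a log2 change of 0.18 ± 0.22 (limma adjusted p = 0.802). Of 5 measured memory phenotype genes 1, Cd27, fell, against 1.41% of all genes. Of the other marker lists, 1 of 11 neutrophil genes (Mmp9) and 1 of 7 dendritic cell genes (Itgax) rose, against 1.13% of all genes. None was called of 7 genes of CD8 and NK cells, 8 of astrocytes, 7 of oligodendrocytes, 8 of neurons and 9 of endothelium and stroma. The CD8 and NK cell list summed to 4729 to 9952 in spinal cord, against 1020 to 3998 in lymph node, and Nkg7 carried most of the spinal cord sum. Cd8a read 165 to 225 in spinal cord, against 121 to 186 in lymph node. Cd8b1 read 116 to 124, against 118 to 134, and Ncr1 51 to 64, against 50 to 60. These overlapped and were not called in either fit. With the array number as a block 2 genes of the list were called higher and 1, Eomes, lower, against 3.67% and 7.45% of all genes. The higher ones encode cytotoxic granule proteins: Nkg7 read 3992, 4244 and 7910 in spinal cord, against 436, 798 and 2196 in lymph node (limma adjusted p = 0.123; 0.00525 with the block), and Gzma read 309, 806 and 1321 in spinal cord, against 83, 201 and 247 in lymph node (limma adjusted p = 0.198; 0.00188 with the block). The block also called 1 of 8 astrocyte genes (Aldoc) higher, against 3.67% of all genes, and 1 of 7 oligodendrocyte genes (Cnp) lower, against 7.45%. The astrocyte marker Gfap read 77, 87 and 80 in spinal cord, against 70, 59 and 77 in lymph node, and the 8 neuron genes summed to 463 to 526 in spinal cord, against 443 to 519 in lymph node. Mbp, a myelin gene, read 3397 to 5981 in spinal cord, against 3798 to 6110 in lymph node, and the endothelial marker Pecam1 read 139 to 210 in spinal cord, against 93 to 356 in lymph node. Lyz2, a macrophage lysozyme gene, read 245, 1771 and 563 in spinal cord, against 78, 81 and 78 in lymph node, and Itgax read 229 to 315 in spinal cord, against 79 to 97 in lymph node. The ratio of 3′ to 5′ actin signal, a measure of shortened product, was 3.72, 4.93 and 2.47 in spinal cord, against 2.07, 11.3 and 1.76 in lymph node. That of Gapdh was 18.8, 24.7 and 4.13 in spinal cord, against 14.1, 32.6 and 3.98 in lymph node. Both ratios were highest on array 2 and lowest on array 3 in both tissues. Stat3 was also lowest on array 3, but it was highest on array 1 in both tissues. The part of RNA quality in these results was not tested.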

How the data were processed

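Per the labels' protocols, each array received biotin-labelled cRNA amplified over 2 cycles from 1 ng of column-purified RNA, a procedure that shortens 5′ ends. Per the submitters' processing notes the authors used RMA (background correction, normalization between arrays, summary into probe sets), with its version not given in the sources used here. Deposited values are whole-number intensity from 9 to 39505 for 45101 probe sets, and log2 was taken here before any test. The number of arrays limits the precision.

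GEO's platform annotation gave names: 34945 probe sets had 1 symbol (34741 matched RefSeq GRCm38.p6, 0 symbols changed), 932 had several, 9160 none and 64 were controls. For each of 18193 genes the probe set of highest mean was used. Tissues were compared with limma 3.58.1 in R 4.3.3 (lmFit, eBayes), tissue as the only term, two-sided, Benjamini-Hochberg over all genes or, for single probe sets, over 45037 probe sets. The fit was tested on simulated data. Other software was scipy 1.17.1, numpy 2.4.6, pandas 2.3.3 and matplotlib 3.10.9 under Python 3.11.15.

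Deviations from the tissue means, across genes, correlated at 0.576, 0.509 and 0.777 for like-numbered arrays and at -0.569 to 0.00506 for unlike-numbered arrays across tissues. No label states a pairing; since all 3 like-numbered correlations were above 0.1, the fit with the number as a block is given beside results where it changes a call, and the main fit has no block. Any 2 arrays had different values at 93.5% of probe sets or more.

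The members, lists, tests and alternatives were chosen with earlier results of these data known. The naming rule took all members and up to 4 called genes of each pathway list (the 2 of lowest p where none was called). It also took a fixed set of family genes and markers, and 3 nearest genes for each called member. Lif, Ptpn11, Il12rb2, Fos, Junb, Prdm1, Rora, Batf, Cd22, Ighm, Ms4a1 and Cd79b were named after their values were seen. So were Nkg7, Gzma, Eomes, Cd8a, Cd8b1, Ncr1, Aldoc, Cnp, Cd27 and Mmp9. Alternatives were the replicate block, each array left out, median centring, quantile normalization, a filter at the 40th percentile, another variance model, array weights, a floor at the 20th percentile, a pseudocount of 16, a threshold of 0.01 and other choices of probe set. Of the pathway genes 8 were not analysed here.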

Additional observations from a re-analysis of the deposited data

How the results depend on the processing

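The decrease of Il6st was called under every alternative run on the gene fit, at a threshold of 0.01 as well, but with the mean of all its probe sets the log2 change was -2.46, against -3.93 with the probe set of highest mean. With the replicate number as a block 3 members were lower; 11 pathway genes were higher and 5 lower; 668 of all genes were higher and 1355 lower; and 1 member probe set was higher and 5 lower. When 1 array was left out, the counts ran from 1 to 3 members lower, 0 to 3 pathway genes higher, 0 to 2 pathway genes lower, 49 to 136 of all genes higher, 32 to 190 lower, and 1 to 4 member probe sets lower. With a floor at the 20th percentile 1 member was lower (Ebi3 lost its call, adjusted p = 0.0672), 1 pathway gene higher and 0 lower, 77 of all genes higher and 84 lower, and 1 member probe set lower. At a threshold of 0.01 the counts were 1 member lower, 1 pathway gene higher and 0 lower, and 56 of all genes higher and 47 lower. With a pseudocount of 16, 0 pathway genes were lower, and with the mean of all probe sets 1 was. The cause of these moves was not tested, beyond fewer arrays in a fit and a stricter threshold by construction. Il6ra was also called with the filter on dim genes (adjusted p = 0.0294), with trend and robust variance (0.0215) and with array weights (0.0468). Stat3 and Socs3, which were not called under any alternative of the gene fit, changed sign. In the probe set fit the member probe set called higher with the block was 1459961_a_at of Stat3 (adjusted p = 0.0209). With the mean of all probe sets the log2 change of Stat3 was 0.47 (adjusted p = 0.525), and with the probe set of widest interquartile range it was 1.24 (adjusted p = 0.167). When single arrays were left out the log2 change of Stat3 ran from -0.35 to 0.45, negative when spinal cord array 1 (-0.35) or 2 (-0.01) or lymph node array 2 (-0.01) or 3 (-0.35) was missing. That of Socs3 ran from -0.46 to 0.40, negative when spinal cord array 1 (-0.10) or lymph node array 3 (-0.46) was missing, and it was -0.16 with the probe set of widest interquartile range. The 3 arrays per tissue and the absence of detection calls limit what can be said of dim genes such as Lifr and Il6.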
